A study of Drosophila melanogaster with 136 samples.

Results

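The 166 genes described here were low in wild-type Drosophila melanogaster embryos aged 12-16 h and abundant at 16-20 h. They were chosen out of 17477 genes by their mean level in the wild-type (WT) libraries of the dora[A] and dora[B] sets, 4 libraries per age. The level is CPM, a gene's count for every 1000000 counts assigned to genes. A gene entered with at least 50 CPM at 16-20 h and at least 8 times its level at 12-16 h. Another 30 genes past both thresholds, all of the cuticle protein families Cpr, Ccp84, Lcp and Twdl, were left out by symbol. The values that chose the genes are therefore given as a description, and every test below compares other libraries unless a sentence says otherwise.

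In the last hours before hatching the epidermis of the fly embryo finishes the larval cuticle, a layered sheet of chitin, proteins and lipids that is then cross-linked and pigmented. Over the same hours the tracheae fill with air, the muscles begin to move the larva, and the gut, fat body and glia take on their larval functions. The steroid hormone ecdysone induces transcription factors that act during fly development.

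The study asks what Dora does. Dora is the fly counterpart of ZSWIM8, part of a ubiquitin ligase that destroys Argonaute proteins bound to microRNAs when a trigger RNA pairs extensively with the microRNA. The mRNA libraries came from whole embryos carrying the mutant alleles dora[A] or dora[B] and from WT embryos of each set, at 8-12 h, 12-16 h and 16-20 h, with 2 libraries per group. A CR43432 set compared mutants of the noncoding RNA gene CR43432 with WT embryos at the same ages, with 2 libraries per group at 8-12 h and 12-16 h and 1 at 16-20 h, and added WT embryos of 0-2 h and 2-4 h, 2 libraries each. According to the series text, separate fly lines served as the embryo replicates and clonal lines as the S2 replicates; the titles number lines only in the CR43432 set. What the mutant alleles change in the genes was not given in the labels. S2 cells, a hemocyte-like line derived from embryos, gave 3 WT and 3 dora clones without RNAi, and 3 WT and 3 dora clones treated with double-stranded RNA against GFP (control) or against Ago1, the Argonaute that carries microRNAs. P-values measure the spread between these replicates. For the CR43432 set at 16-20 h, with 1 library per genotype, the spread comes from the younger groups of the set.

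The 56 libraries held between 8964741 and 35494475 counts assigned to genes, so that a count of 0 allows a level of up to 0.0845 to 0.335 CPM (3 counts, counting error only). Ago1 RNAi lowered the AGO1 level in each clone, to 191-238 CPM from 417-746 CPM under GFP RNAi. At 16-20 h the Dora level was 340 and 322 CPM in dora[A], overlapping the 288 and 327 CPM of the matching WT. It was 200 and 287 CPM in dora[B], below the 341 and 375 CPM of WT. CR43432 was read at 196 and 177 CPM in its mutants at 8-12 h, below the 245 and 230 CPM of WT. The targeted RNA thus does not check the dora[A] labels, and in the other mutants it was lower at these ages but well above 0. The 6 dora[B] libraries held 80.4 to 195 CPM of bcd, a maternal mRNA, while the matching WT libraries held 0.173 to 2.33 CPM. The dora[B] library of 16-20 h replicate 1 stood apart: Mhc, the muscle myosin heavy chain, was at 5306 CPM there, 10318 CPM in replicate 2 and 11290 and 12018 CPM in WT. For comparisons across the ages and with WT that include it, medians over the members are given with and without it. Test results of single genes are given only with it.

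All 166 genes are annotated as protein coding. Only 55 have a name and the other 111 carry a CG number. Lists of cuticle, tanning, protease, lipid, detoxification, hormone, sensory, transport, immune, ecdysone and muscle genes held 26 of them, leaving 140 in none of the 11 lists. Together the genes took 4.28% and 7.19% of all gene counts in the 2 WT libraries of the dora[A] set at 16-20 h, against 0.250% and 0.164% at 12-16 h. CG13731 alone had 4328 and 14592 CPM in those 16-20 h libraries and 4320 and 10898 CPM in those of the dora[B] set, after 150, 62.6, 424 and 49.9 CPM at 12-16 h. EAChm varied less, with 1309, 1479, 1507 and 1381 CPM at 16-20 h and 101, 44.9, 180 and 36.8 CPM at 12-16 h. The steepest entry by the rule was CG33110, with 110, 382, 144 and 148 CPM at 16-20 h after 2.88, 0.715, 6.47 and 0.0863 CPM. Among these genes, then, the agreement of the lines at 16-20 h differed widely. CPM is not divided by gene length, so levels are compared between samples and not between genes.

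At the edges of the rule, Alp5, Corin and Muc18B had WT means of 50.7, 50.7 and 50.7 CPM at 16-20 h, and CG1143, CG13024 and CG5070 missed the level with 47.1, 47.2 and 47.5 CPM. By ratio, Swim, CG6830 and Obp44a entered at 8.05, 8.09 and 8.18 times, and CG42540, Nha1 and e, the ebony gene of cuticle tanning, missed at 7.75, 7.83 and 7.87 times. The same rule applied to the WT of the dora[A] set alone gave 182 genes, of which 160 are among the 166, and the WT of the dora[B] set alone gave 151, of which 145 are.

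**Figure D1:**
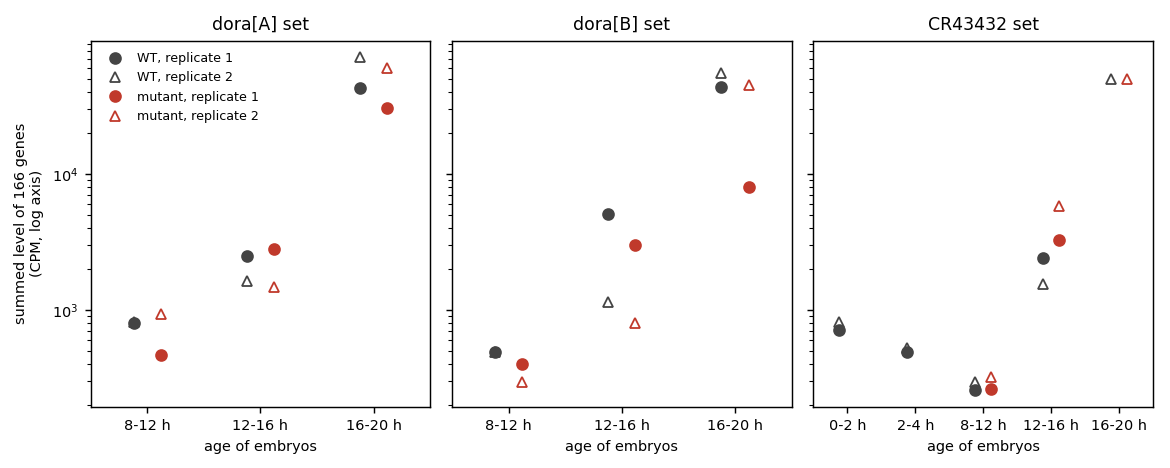
Summed level of the 166 genes in each embryo library (CPM, log axis) by age, with 1 panel per set and separate symbols for WT and mutant. The sums climb to between 30298 and 71859 CPM at 16-20 h in every library but 1, the dora[B] replicate 1 library at 8084 CPM.

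The switch was present in embryos that the rule did not use. In the CR43432 set the sum over the 166 genes was 2396 and 1554 CPM in WT and 3265 and 5801 CPM in mutants at 12-16 h, and reached 49650 CPM in WT and 49913 CPM in the mutant at 16-20 h. All 166 genes rose between these ages in that set (edgeR quasi-likelihood test, Benjamini-Hochberg adjusted p under 0.05, WT and mutant averaged), where 20.2% of 11457 genes tested rose and 15.4% fell. The median rise was 19.3-fold (log2 change 4.27, range 1.69 to 8.43) against a median log2 change of -0.06 over all genes tested. In dora[A] embryos 164 of the 166 rose and none fell, where 13.3% of 11153 genes rose and 9.53% fell. The median rise there was 20.3-fold, or 4.34 on the log2 scale against -0.12 over all genes. Both 16-20 h libraries lay above both 12-16 h libraries for all 166 genes, as they did for 29.7% of genes tested. Without the dora[A] replicate 2 library of 12-16 h, 96 of the 166 passed. In these whole-embryo libraries more cells of a type and more RNA per cell cannot be told apart.

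Both uncalled genes in dora[A] rested on lines that disagreed at 12-16 h. Jon65Aiv, a serine protease of the larval midgut, had 8.96 and 0.166 CPM at 12-16 h and 39.4 and 93.1 CPM at 16-20 h (log2 change 3.93, SE 1.53, edgeR adjusted p = 0.101). CG12480 had 10.5 and 0.911 CPM, then 43.3 and 180 CPM (log2 change 4.37, SE 1.45, edgeR adjusted p = 0.0604). In both cases replicate 1 was the higher at 12-16 h and the lower at 16-20 h, and the ages did not overlap.

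**Figure D2:**
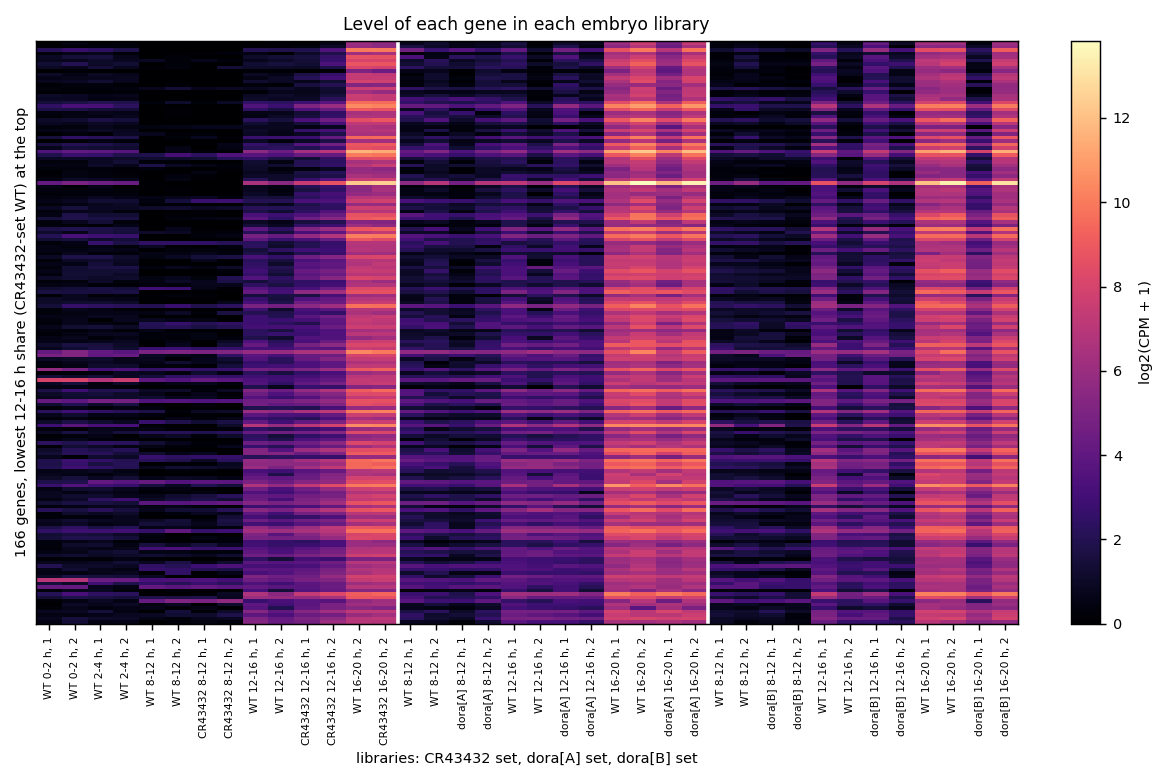
Level of each of the 166 genes (rows) in every embryo library (columns), coloured by log2(CPM + 1) and ordered by their 12-16 h share of the 16-20 h level. Nearly all rows are dark until 12-16 h and bright at 16-20 h, except in the dora[B] replicate 1 column at 16-20 h, where 36 genes were below their own 12-16 h level.

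Among matrix genes, Vajk3 and Vajk2, obst-E and obst-J of the chitin-binding obstructor family, and the mucin-type genes Mur18B, Muc18B, Muc55B and Muc26B were members. obst-E had 12.4 and 10.2 CPM in dora[A] embryos at 12-16 h and 201 and 255 CPM at 16-20 h, a log2 rise of 4.41 (SE 0.42, edgeR adjusted p = 0.000135). In CR43432-set WT it went from 33.9 and 12.4 CPM to 259 CPM, a less steep course with libraries that still did not overlap. Muc26B, which encodes a secreted mucin, had 30.2 and 11.3 CPM in dora[A] at 12-16 h and 218 and 717 CPM at 16-20 h (log2 change 4.58, SE 0.92, edgeR adjusted p = 0.00865). Of the 54 other chitin and matrix genes tested in dora[A], 10 rose and 8 fell, and in the CR43432 set 19 rose and 9 fell of 53. Cuticle proteins left out by the rule rose as well, 30 of 30 in each of these sets. They met the same thresholds, so this count is no independent evidence.

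Genes of tanning and pigment were represented by Ddc, the dopa decarboxylase that makes dopamine for cross-linking the cuticle, and y, needed for black pigment. Ddc had 15.5 and 4.72 CPM in dora[A] at 12-16 h and 174 and 145 CPM at 16-20 h (log2 change 4.04, SE 0.76, edgeR adjusted p = 0.00583). In the CR43432 set Ddc stood at 11.05 and 4.42 CPM in WT at 12-16 h and at 158 CPM at 16-20 h. y had 6.36 and 2.73 CPM, then 89.2 and 109 CPM in dora[A] (log2 change 4.51, SE 0.43, edgeR adjusted p = 0.000135). In dora[A] both genes were several times higher at the later age in both lines. In the CR43432 set, with 1 library per genotype at 16-20 h, the later libraries lay above all earlier ones for both genes. Of the 30 other tanning and pigment genes tested in dora[A], 7 rose and 2 fell.

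Among lipid genes, FASN1, a fatty acid synthase, was already present early and rose late. FASN1 had 30.2 and 33.7 CPM in CR43432-set WT at 8-12 h, 55.02 and 60.4 CPM at 12-16 h and 1375 CPM at 16-20 h. In dora[A] it had 51.0 and 45.2 CPM at 12-16 h and 182 and 524 CPM at 16-20 h (log2 change 2.96, SE 0.66, edgeR adjusted p = 0.0132), so the later libraries were all above the earlier ones but far from each other. sit, an elongase of very long fatty acids, showed a steeper course in dora[A], from 7.37 and 8.20 CPM to 167 and 866 CPM (log2 change 6.15, SE 1.03, edgeR adjusted p = 0.00412). osy, an ABC transporter of the lipid barrier of cuticle and tracheae, went from 25.6 and 14.6 CPM to 274 and 151 CPM (log2 change 3.46, SE 0.53, edgeR adjusted p = 0.00184). For osy replicate 1 was the higher at 16-20 h, while for FASN1 and sit replicate 2 was. The members in the lipid and barrier list are FASN1 and Jhbp12, while sit and osy are in none of the lists. Of the 54 other lipid and barrier genes tested in dora[A], 12 rose and 5 fell.

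Enzymes and transporters formed another group. The cytochromes P450 Cyp9b2, Cyp28d1 and Cyp4c3 rose in dora[A], the last from 2.53 and 5.30 CPM to 32.4 and 205 CPM (log2 change 5.03, SE 1.05, edgeR adjusted p = 0.0106). Picot, a phosphate cotransporter, had 13.1 and 8.39 CPM in CR43432-set WT at 12-16 h and 247 CPM at 16-20 h. Eaat1, the glial glutamate transporter, had 17.8 and 14.2 CPM, then 228 CPM. In dora[A] and the CR43432 set all of these were clear of overlap between the ages. In dora[B] Cyp4c3 overlapped, with 7.63 CPM in replicate 1 at 12-16 h and 5.21 CPM in replicate 1 at 16-20 h. Eaat1 is in none of the lists. Among genes outside the 166 tested in dora[A], 39 of 118 in the detoxification list rose and 6 fell, and 26 of 87 in the transport list rose and 5 fell.

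Genes of hemolymph and immunity included fon, needed for clotting, Idgf1, a chitinase-like secreted protein, IM33, an immune-induced peptide, and Hml, the clotting protein hemolectin of hemocytes. Hml had 4.77 and 1.32 CPM in dora[A] at 12-16 h and 31.4 and 105 CPM at 16-20 h (log2 change 4.55, SE 0.86, edgeR adjusted p = 0.0059). In the CR43432 set it had 1.20 and 1.36 CPM in WT at 12-16 h and 116 CPM at 16-20 h, and in the mutant 3.28 and 4.72 CPM, then 187 CPM. In these 2 sets every 16-20 h library lay above every 12-16 h library. In dora[B] the ages overlapped (log2 change 3.24, SE 1.51, edgeR adjusted p = 0.201). There replicate 1 had 6.78 CPM of Hml at 12-16 h and 1.86 CPM at 16-20 h. Hml is in none of the lists. Of 33 other immune genes tested in dora[A], 6 rose and 3 fell.

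Eip74EF, an ETS-domain transcription factor induced by ecdysone, was the ecdysone gene among the members. It had 11.4 and 18.0 CPM in dora[A] at 8-12 h, 54.3 and 22.5 CPM at 12-16 h and 327 and 458 CPM at 16-20 h (log2 change of the last step 3.43, SE 0.43, edgeR adjusted p = 0.000614). The 3 ages followed each other without overlap. Of the 32 other ecdysone genes tested, 2 rose and 8 fell in dora[A], and 3 rose and 9 fell of 33 in the CR43432 set. Zasp66, a protein of the muscle Z-disc, had 50.1 and 27.8 CPM in dora[A] at 12-16 h and 425 and 859 CPM at 16-20 h (log2 change 4.12, SE 0.61, edgeR adjusted p = 0.00199). Of the 30 other muscle genes 17 rose and 1 fell. Serine proteases and serpins (26 of 79 others rose, 4 fell), sensory genes (11 of 81 rose, 4 fell) and neuropeptides and hormones (9 of 42 rose, none fell) gave 3, 2 and no members.

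Many of the genes rose before the last step in CR43432-set WT, the only embryos in which this earlier step was tested. In CR43432-set WT, 139 of the 166 already rose between 8-12 h and 12-16 h and 1 fell, where 22.7% of genes rose and 21.1% fell (edgeR, adjusted p under 0.05). The exception was smp-30, a calcium-binding protein of the regucalcin family, which went from 17.1 and 33.3 CPM to 5.59 and 8.22 CPM (log2 change -1.76, SE 0.40, edgeR adjusted p = 0.00446) and stood at 49.1 CPM at 16-20 h. The 12-16 h level as a percentage of the 16-20 h level, called the 12-16 h share below, orders the genes; a gene that stays at a steady low level before the last step has a high share too, so it is no direct measure of a start. Its median was 3.63% in CR43432-set WT, with a range of 0.145% to 24.3%, and 5.16% in dora[A]. CG33270, at 0.0708 and 0.113 CPM and then 63.5 CPM, had one of the lowest shares, and osy, at 39.7 and 15.6 CPM and then 146 CPM, one of the highest.

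The order of the genes by this share was alike in CR43432-set WT, its mutants and dora[A]. Over the 166 genes, the Spearman rho of the 12-16 h share was 0.91 between WT and mutants of the CR43432 set and 0.78 between that WT and dora[A]; these genes share libraries and are no independent points, so the values are descriptions. By mean rank CG9521, CG14573, CG14568, CG4229 and sit had the lowest shares. smp-30, CG11000, aralar1, which encodes a mitochondrial aspartate-glutamate carrier, CG15249 and reb, which acts in chitin deposition, had the highest. For CG9521 the CR43432-set WT levels were 1.42 and 1.93 CPM at 12-16 h and 441 CPM at 16-20 h. For reb they were 11.4 and 7.65 CPM, then 101 CPM, after 7.22 and 9.18 CPM at 8-12 h, so that 8-12 h and 12-16 h overlapped (log2 change 0.30, SE 0.37, edgeR adjusted p = 0.528). CG11000 did not pass the test between those ages either (log2 change 1.05, SE 0.46, edgeR adjusted p = 0.0835), and smp-30 fell, as above. Between dora[B] and the CR43432-set WT the rho was -0.01, and it was 0.28 with replicate 2 alone and -0.66 with replicate 1 alone.

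In dora[B] embryos 61 of the 166 rose between 12-16 h and 16-20 h and none fell, where 9.38% of 11424 genes tested rose and 5.53% fell (edgeR, adjusted p under 0.05). At an unadjusted p under 0.05 the count was 132, against 17.4% of genes, and 130 had no overlap between the ages, as did 22.4% of genes. The median rise was 14.0-fold, or 3.80 on the log2 scale. Without the 16-20 h replicate 1 library the median was 4.27, beside -0.39 over all genes tested. Without the 16-20 h replicate 2 library the median was 1.70, beside -0.005 over all genes tested. In that fit 143 estimates were above 0 and 23 below, among them CG40198 with a log2 change of -6.21. obst-E was among the 61, with 7.67 and 2.25 CPM, then 111 and 261 CPM (log2 change 5.30, SE 0.94, edgeR adjusted p = 0.0087). Eip74EF was another, with 17.9 and 9.29 CPM, then 109 and 380 CPM (log2 change 4.26, SE 0.69, edgeR adjusted p = 0.00499). Also among the 61 were osy, Zasp66 and Cyp9b2. Of the genes described above for dora[A], Muc26B, Ddc, y, FASN1, sit, Cyp28d1, Cyp4c3 and Hml were not called in dora[B]. Their edgeR adjusted p ran from 0.056 for y to 0.201 for Hml, and for FASN1, Cyp4c3 and Hml the ages overlapped.

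The dora[B] replicate 1 library of 16-20 h held 8084 CPM of these genes and replicate 2 held 45286 CPM. The shortfall was uneven across the 166. The median gene was at 17.8% of its replicate 2 level, with quartiles of 7.74% and 28.6% and a range of 0.101% to 88.5%. CG14572 had 0.0404 CPM in replicate 1 and 39.9 CPM in replicate 2, and CG40198 had 0.121 and 55.3 CPM. At the other end, CG14327 had 37.3 and 42.2 CPM and osy 102 and 173 CPM. The genes most short in this library tended to have a low 12-16 h share elsewhere: the rho of the replicate 1 percentage with that share was 0.84 in CR43432-set WT and 0.65 in dora[A], as a description over 166 genes. The 40 genes of lowest share in CR43432-set WT had a median of 2.75% and the 40 of highest share had 31.2%. Mhc, which is no member, was also lower in replicate 1 (5306 against 10318 CPM), and bcd was at 195 against 80.4 CPM; the part of what moves these transcripts in the shortfall was not tested.

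**Figure D3:**
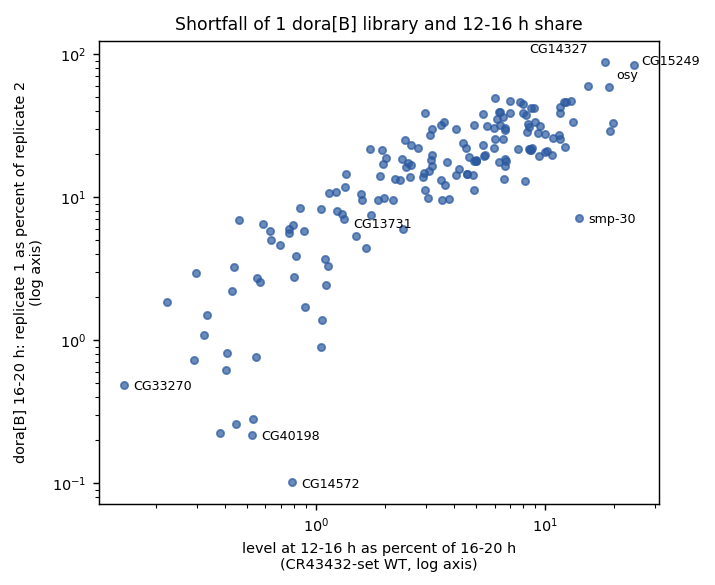
Each of the 166 genes by its 12-16 h share in CR43432-set WT (12-16 h level as % of 16-20 h, x axis, log) and by its level in dora[B] 16-20 h replicate 1 as % of replicate 2 (y axis, log). The cloud climbs from the lower left, with a rho of 0.84 over the 166 genes.

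The mutants were then compared with WT of the same age. At 12-16 h the sums of the 166 genes in both CR43432 mutant libraries lay above those in WT (3265 and 5801 against 2396 and 1554 CPM). No single gene was called in edgeR, where 0% of genes were called higher and 0.0175% lower. At an unadjusted p under 0.05 in edgeR, 101 were higher and none lower, against 2.85% of genes higher. DESeq2 called 23 members higher. Its share over all genes is not given here, so that count is not set against the edgeR shares. The 2 mutant libraries were both above the 2 WT libraries for 120 of the 166, as for 20.4% of genes tested, and the median difference was 2.20-fold. CG13731 had 181 and 424 CPM in mutants and 89.1 and 41.4 CPM in WT (log2 difference 2.24, SE 0.47, edgeR adjusted p = 0.466). CG30457 had 32.6 and 61.5 CPM against 10.3 and 5.95 CPM (log2 difference 2.55, SE 0.46, edgeR adjusted p = 0.351). The 30 left-out cuticle genes had a median log2 difference of 1.60 in the same libraries. At 16-20 h, with 1 library each and so no replicate check, CG13731 was at 5577 CPM in the mutant and 5039 CPM in WT, and CG30457 at 1219 and 1399 CPM. At 8-12 h no member was called in these mutants, where 0.0436% of genes were (edgeR; DESeq2 called 2). At an unadjusted p under 0.05, 5 were higher and 6 lower, against 1.42% and 1.94% of genes.

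For dora at 8-12 h, no member was called in dora[A] (edgeR; DESeq2 0), where 0.00897% of genes were, and 2 were lower at an unadjusted p under 0.05, against 0.897% of genes. In dora[B] 1 member was called, Picot, where 6.68% of genes were called higher and 0.193% lower. Picot had 9.28 and 20.4 CPM in dora[B] and 1.19 and 0.670 CPM in WT (log2 difference 4.08, SE 0.89, edgeR adjusted p = 0.0284); the call was lost without any of 3 of the 4 libraries. Picot is also a transcript of 0-2 h embryos, with 28.2 and 34.4 CPM in CR43432-set WT, and bcd was at 119 and 118 CPM in these dora[B] libraries; the part of maternal RNA in the Picot value was not tested. In dora[A] at 8-12 h Picot had 5.85 and 3.61 CPM, overlapping the 7.57 and 3.73 CPM of WT.

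At 16-20 h the WT libraries are those that chose the genes, and a choice of genes for high WT levels favours lower values in the mutants. In dora[A] none of the 166 was called (edgeR; DESeq2 0), where 0% of genes were, and 1 was lower at an unadjusted p under 0.05, against 1.08% of genes. The log2 difference was below 0 for 158 of the 166, with a median of -0.46 beside -0.06 over all genes. Over the 151 genes chosen on the WT of the dora[B] set alone it was below 0 for 141, with a median of -0.43. In dora[B] none was called (edgeR; DESeq2 1), where 10.2% of genes were called higher and 5.44% lower. At an unadjusted p under 0.05, 5 were lower, against 20.3% of genes. All 166 estimates were below 0, with a median of -1.18 beside -0.48 over all genes, and -1.16 over the 182 genes chosen on the WT of the dora[A] set alone. With replicate 1 as the only dora[B] library of this age the median was -2.64 beside -0.25 over all genes. Without replicate 1 none was called, 147 estimates were below 0 and 19 above, and the median was -0.40 beside -0.28 over all genes. FASN1 had 66.6 and 425 CPM in dora[B] against 316 and 797 CPM in WT (log2 difference -1.47, SE 0.86, edgeR adjusted p = 0.258), and 182 and 524 CPM in dora[A] against 406 and 1279 CPM (-1.38, SE 0.62, edgeR adjusted p = 1). In both alleles the groups overlapped.

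Low counts of these genes were present in the first hours as well. In CR43432-set WT at 0-2 h, 60 and 79 of the 166 reached 1 CPM, then 85 and 70 at 2-4 h but only 39 and 48 at 8-12 h, and 6 and 0 members were at 0 at 0-2 h against 65 and 51 at 8-12 h. Most sat at a small percentage of their 16-20 h level. The medians were 0.366% and 0.602% in the 0-2 h libraries, the 5th to 95th percentiles ran from 0.114% to 1.32% and from 0.247% to 1.86%, and 148 genes lay between 0.1% and 2% in both. CG13731 had 16.4 and 28.4 CPM at 0-2 h, 23.1 and 18.7 CPM at 2-4 h, and 0.0768 and 0 CPM at 8-12 h. CG10953 had 10.1 and 15.7 CPM, 14.8 and 12.1 CPM, then 0 and 0.468 CPM. Both were thus higher before 4 h than at 8-12 h. The rho between the early and the 16-20 h level over the 166 genes was 0.81 and 0.82 at 0-2 h, 0.76 and 0.79 at 2-4 h, and 0.14 and 0.19 at 8-12 h.

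The left-out cuticle genes took a like course: their sum stood at 0.403% and 0.693% of its 16-20 h level at 0-2 h and at 0.185% and 0.214% at 8-12 h. Mhc stood at 0.500% and 1.59% at 0-2 h but at 2.48% and 5.55% at 8-12 h, and the sum of Lsp2, Fbp1, Fbp2 and apolpp, genes of the fat body, at 2.45% and 7.82% and then at 166.6% and 225.6%. The WT libraries of the other sets at 8-12 h also held more members than the CR43432 set: 119 and 135 members reached 1 CPM in the dora[A] set, and 95 and 95 in the dora[B] set, with rho to 16-20 h of 0.50, 0.67, 0.60 and 0.57. The source of these counts was not tested.

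**Figure D4:**
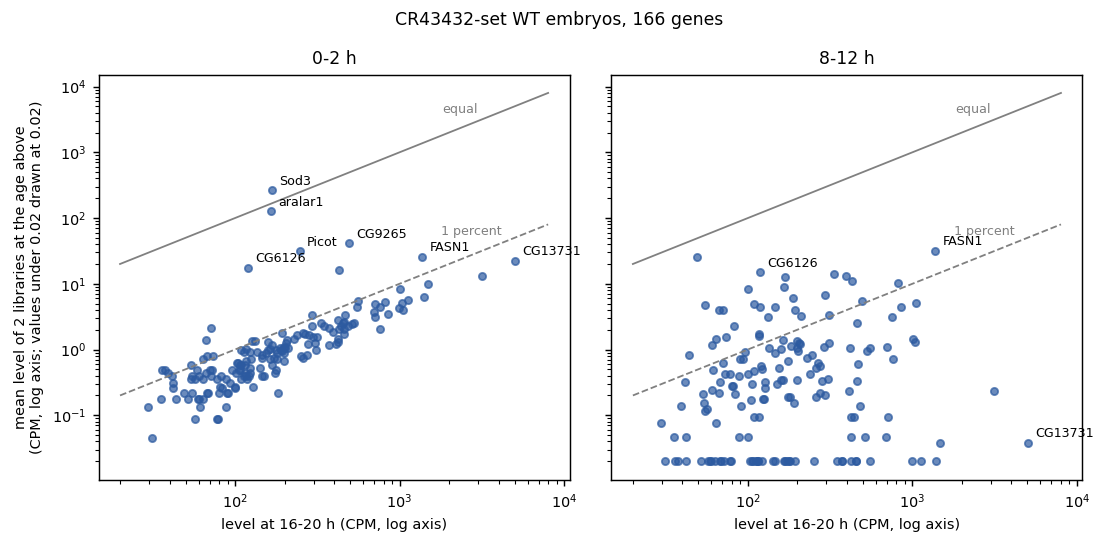
Level of each of the 166 genes in CR43432-set WT at 0-2 h (left) and 8-12 h (right), mean of 2 libraries in CPM on a log axis, against its 16-20 h level. The dashed line marks 1% and the solid line equal levels. At 0-2 h most genes follow a band under the dashed line, with Sod3, aralar1, Picot and CG6126 far above it, and at 8-12 h the genes scatter, many at the floor of the plot.

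A few members stood out of that band at 0-2 h. Sod3, an extracellular superoxide dismutase, had 262 and 267 CPM at 0-2 h, 114 and 202 CPM at 2-4 h, 14.0 and 10.96 CPM at 8-12 h, 9.56 and 6.80 CPM at 12-16 h and 168 CPM at 16-20 h. Its level was thus high at both ends of embryogenesis and low between. aralar1 had 133 and 123 CPM at 0-2 h and 20.7 and 20.2 CPM at 2-4 h, a log2 fall of 2.63 (SE 0.24, edgeR adjusted p = 8.51e-06). CG6126 had 17.1 and 18.0 CPM, then 0.729 and 0.440 CPM (log2 change -4.89, SE 0.40, edgeR adjusted p = 4.36e-06). Both fell with no overlap, as did CG9265 and FASN1. Gpo1, the mitochondrial glycerophosphate oxidase, rose from 2.52 and 2.58 CPM to 16.7 and 12.3 CPM (log2 change 2.52, SE 0.33, edgeR adjusted p = 0.000104). Low means also rose for spz3, a Spätzle-family ligand (1.40 to 4.86 CPM), CG6763 (0.353 to 3.89), CG13217 (0.706 to 5.28) and CG42819 (0.264 to 1.26). None of these rising genes reached 2% of its 16-20 h level in both 0-2 h libraries. In all 5 of the 166 rose and 4 fell between 0-2 h and 2-4 h, where 16.4% and 19.2% of genes did.

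Many of the genes are neighbours. Chromosome arm 3L carried 71 of the 166, or 42.8%, against 19.6% of annotated protein-coding genes, and the arms 3R, 2L, 2R and X carried 34, 23, 23 and 15. Joining members no more than 20 kb apart gave 14 runs of 3 or more members, with 56 genes in all, of which 8 runs with 37 genes are on 3L (RefSeq gene spans, Release 6 assembly). The longest were 7 members among 13 protein-coding genes at 3L:4436721-4490963 (CG15021, CG12607, CG11345, CG15023, CG15024, CG7465 and CG13722), and 7 among 13 at 3L:16294711-16324308 (CG4962, CG13044, CG13043, CG13063, CG13041, CG13060 and CG13059). The members of runs were short, with a median gene span of 869 bp, against 1812 bp for all 166 and 2160 bp for protein-coding genes.

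Within runs the 12-16 h share was more alike in some than in others. The 6 members at 3L:21729675-21744269 (CG14570, CG14569, CG14568, CG14573, CG14572 and CG14565) had low shares, from 0.297% to 1.35% in CR43432-set WT, where the lower quartile of the 166 was 1.32%. The 3 members at 3L:20202070-20220420 (CG7298, CG7017 and CG6933) had 5.00% to 5.95%. The 3 at 3R:21745266-21757758 (CG31343, CG31233 and CG31198) spread from 2.01% to 13.2%. Similar neighbours can share reads, the labels do not say how such reads were counted, and 53 of the 166 gene spans overlap another annotated gene, so the split between such neighbours is uncertain.

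In S2 cells most of these genes had a mean under 1 CPM. Of the 166, 76 were at 0 in all 3 WT clones under GFP RNAi and 31 reached a mean of 1 CPM. No share over all genes is given for these counts or the next, so they describe the members alone. In the WT clones without RNAi, 96 were at 0 in all 3 and 27 reached a mean of 1 CPM. FASN1 had 5237, 4691 and 4718 CPM and Idgf1 178, 111 and 397 CPM, and these alone exceeded their WT mean of 16-20 h embryos, which comes from another table with its own normalization. In the dora clones 3 of the 26 members tested were called, where 0.96% of 7294 genes were called higher and 1.77% lower. CG10359 had 18.2, 13.8 and 23.8 CPM in WT clones and 0.466, 2.66 and 1.98 CPM in dora clones (log2 difference -3.27, SE 0.50, edgeR adjusted p = 0.0352). aralar1 had 30.6, 28.3 and 35.0 CPM in WT and 46.5, 44.8 and 59.7 CPM in dora clones (log2 difference 0.84, SE 0.11, edgeR adjusted p = 0.0178). Obp44a, an odorant-binding protein, had 38.7, 22.9 and 32.5 CPM in WT and 12.7, 16.7 and 12.2 CPM in dora clones (log2 difference -1.01, SE 0.21, edgeR adjusted p = 0.0492). None of the 3 overlapped between genotypes, but leaving out single clones left between 0 and 3 calls.

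Ago1 RNAi lowered most of the members that S2 cells express. Of 34 tested (the other 132 had too few counts), 21 fell and 2 rose in WT clones, where 28.4% of 7861 genes fell and 25.6% rose, and 22 fell and 1 rose in dora clones, where 26.7% fell and 24.6% rose (edgeR, adjusted p under 0.05). The 21 that fell in WT fell in dora clones too; over all genes tested 23.09% fell in both. The medians were -2.03 and -2.02 on the log2 scale, against -0.02 and -0.01 over all genes tested. A filter that needs counts in some libraries favours genes that are high in 1 group, so these counts describe the members tested and not the 166.

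Gpo1 had 141, 132 and 193 CPM under GFP RNAi in WT clones and 24.4, 27.4 and 27.1 CPM under Ago1 RNAi (log2 change -2.51, SE 0.21, edgeR adjusted p = 3.80e-06). CG9521 had 78.6, 95.4 and 59.6 CPM, then 5.56, 9.81 and 4.56 CPM (log2 change -3.52, SE 0.35, edgeR adjusted p = 2.14e-05). CG10359, low in the dora clones, had 44.7, 39.7 and 30.1 CPM, then 0.948, 0.601 and 0.343 CPM (log2 change -5.84, SE 0.58, edgeR adjusted p = 2.21e-05). In each case every Ago1 library lay below every GFP library, in dora clones as well. Eip74EF went the other way, from 25.1, 21.03 and 22.8 CPM to 49.2, 38.7 and 49.0 CPM in WT (log2 change 1.03, SE 0.19, edgeR adjusted p = 0.000797) and from 20.3, 27.9 and 20.1 CPM to 41.3, 60.9 and 44.2 CPM in dora clones (log2 change 1.11, SE 0.19, edgeR adjusted p = 0.000589). FASN1 had 3669, 3420 and 4066 CPM, then 4116, 3303 and 4398 CPM (log2 change 0.13, SE 0.13, edgeR adjusted p = 0.408), with overlapping groups.

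The effect of Ago1 RNAi was not called different between dora and WT clones for any of the 34 members without a block for clones (edgeR; DESeq2 0), where 0.0763% of genes were. At an unadjusted p under 0.05, 1 was, against 2.8% of genes. That member was Tsp42Eg, a tetraspanin, with 11.7, 6.39 and 12.9 CPM, then 0, 0 and 0.0981 CPM in WT clones, and 3.54, 6.95 and 3.00 CPM, then 0.320, 0.212 and 0.366 CPM in dora clones (edgeR adjusted p of the difference = 0.302). It fell in both genotypes. GFP and Ago1 RNAi were applied to the same clones, and with each clone as a block, a fit added after seeing the data, Tsp42Eg was called different (log2 difference 4.39, SE 0.90, edgeR adjusted p = 0.0314), where 1.65% of genes were. Its WT libraries under Ago1 RNAi are near 0, so the fitted size depends on the prior count.

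**Figure D5:**
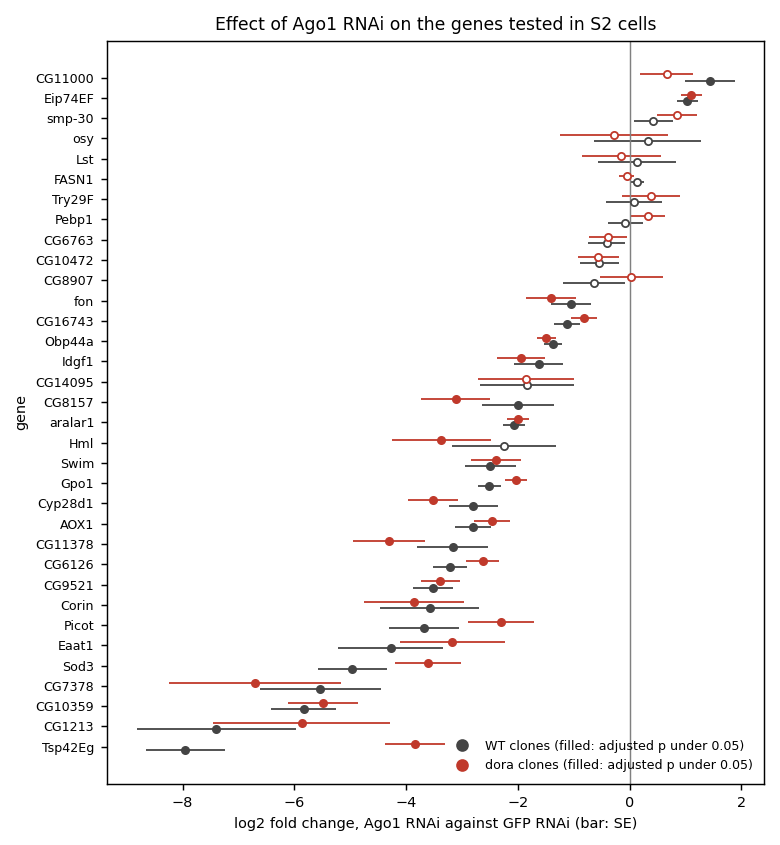
Log2 change under Ago1 RNAi against GFP RNAi (x axis) of each of the 34 members tested (rows), in WT clones and dora clones, with bars of 1 SE and filled points for an adjusted p under 0.05. Most filled points lie left of 0 in both genotypes, and Eip74EF lies right of 1 in both.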

How the data were processed

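Poly(A) mRNA libraries of staged embryos and S2 clones were analysed from the tables of counts per gene that the authors deposited. STAR 2.4, HTSeq and the dm6 build are named in the submitters' processing notes; the strand setting of the counting is not given in the sources used here. The count values are raw, per the file contents. Rows that name no gene held 6.02% to 20.5% of a library and stayed out of CPM, library sizes and tests. Depth was 8964741 to 35494475 gene counts, and no replicate pair was alike within sampling noise (lowest chi-square per gene 15.0).

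Each table was fitted with all its mRNA libraries in edgeR 4.0.16 (R 4.3.3; TMM, filterByExpr, robust quasi-likelihood test, 1 coefficient per group), and p-values were adjusted by Benjamini-Hochberg over all genes tested. The standard error is the log2 change divided by the square root of F. The script was tested on simulated data. DESeq2 1.42.0, other size factors, no filter, the compared groups alone, a replicate block and leaving out each library were alternatives; the difference of the Ago1 effects between genotypes and its fit with clones as blocks were added after seeing the data.

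The members, the gene lists and the tests were chosen with earlier results of these data known. Genes were named by a written rule (highest WT level or ratio, highest of each list, smallest adjusted p per comparison, uncalled or threshold members, highest at 0-2 h or in S2 cells). Genes named outside it, chosen after their values were seen, include Hml, osy, sit, Eaat1, reb, smp-30, CG9265 and those of the runs. Lists held 33 to 312 genes of the tables.

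Same-numbered embryo libraries are called paired in the series text; the correlation of their deviations within an age was 0.02 to 0.38 in the dora[A] set, -0.06 to 0.22 in the dora[B] set and 0.05 to 0.19 in the CR43432 set. GFP and Ago1 RNAi of 1 clone correlated at 0.52 to 0.70. Coordinates are RefSeq spans of Release 6. Promoter and protein sequences were not used here. Python 3.11.15, pandas 2.3.3 and matplotlib 3.10.9 did the summaries.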

Additional observations from a re-analysis of the deposited data

How the results depend on the processing

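Leaving out single libraries gave 96 to 162 genes rising in dora[A], 19 to 131 in dora[B], 164 to 166 changed in the CR43432 set between 12-16 h and 16-20 h, 112 to 130 between 8-12 h and 12-16 h, 8 to 12 between 0-2 h and 2-4 h, 0 to 1 in dora[B] and in CR43432 mutants at 8-12 h, 0 to 46 in dora[B] at 16-20 h, 0 to 3 in dora S2 clones and 21 to 24 under Ago1 RNAi. DESeq2 called 131 genes rising in dora[B], 16 changed between 0-2 h and 2-4 h, 2 in dora[B] and 2 in CR43432 mutants at 8-12 h, 23 in CR43432 mutants at 12-16 h, 1 in dora[B] at 16-20 h and 5 in dora S2 clones. With no filter on low counts, 21 rose in dora[B], 0 changed in dora[B] and 1 in CR43432 mutants at 8-12 h, and 9 in CR43432 mutants at 12-16 h. With the compared groups alone, 24 rose in dora[B] and 2 changed at 8-12 h. With a replicate block the 3 calls in dora S2 clones became 0; those clones share only a number, with correlations of -0.26 to 0.17, and that block moved no other count of members by over 1.5 times. With each RNAi clone as a replicate block, added after seeing the data, 1 member was called for the difference of the Ago1 effects and 26 and 25 were changed by Ago1 RNAi in WT and dora clones. The log2 change of CG40198 in dora[B] ran from -6.21 (without replicate 2 of 16-20 h) to 2.97. A ratio of 4 or 16 in the rule gave 292 or 108 genes, and leaving out WT libraries gave 148 to 179. Beyond the effect of fewer libraries or another set of genes tested, the cause was not tested. For most of these alternatives, and for the DESeq2 counts above, no share over all genes is given. Those counts therefore describe the members alone. With 2 libraries per embryo group, a call rests on agreement of 2 libraries and on a spread shared with the other groups. The CR43432 set at 16-20 h has 1 library per genotype, so that age adds nothing to the spread. Levels under 1 CPM are a few counts each.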
